A study of Sus scrofa with 10 samples.

Results

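Glia of the fetal porcine medial entorhinal cortex were compared between 3 libraries of embryonic day 60 (E60), which carry the same label but differ in the region genes their glia express. A cell was counted as glia when SOX2, SOX9, HES1 and SLC1A3 together had at least 4 unique molecular identifiers (UMIs, 1 for each captured transcript), with at most 5 UMIs of the microglial genes C1QA and C1QB, at most 2 of the vascular genes COL1A1, CLDN5 and RGS5, and at most 1 of the interneuron genes GAD1 and GAD2. CLDN5 was not matched in the files, so the vascular limit rested on COL1A1 and RGS5. The gate held 3765 of the 14346 E60 cells, in a series of 28229 cells. It held 2239 cells of E60_1, 886 of E60_2 and 640 of E60_3, which were 27.4%, 25.5% and 23.7% of each library.

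The series holds 10 droplet libraries of pig entorhinal cortex, of whole cells at E50, E60, E70 and after birth and of nuclei at E70 and after birth. The fetuses came from Danish Landrace and Yorkshire sows crossed with Duroc boars, the tissue was untreated, and the whole cells were freed with papain. E60_1 and E60_2 each came from 1 brain, and E60_3 from 2 pooled brains, so its levels are a mixture of 2 fetuses. In the sequencing table of the study E60_1 shared a pool with E70_1, E60_2 with Adult_1 and E60_3 with E70_3, so that brain, dissection, pool and depth cannot be told apart between the 3 libraries. The cells were chosen by their UMIs of the gate genes, and the split of E60_3 from the other two was itself chosen by expression values of these libraries, so the contrast is given as a description, with no test.

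During brain development transcription factors divide the neural tube into territories. EMX1, EMX2, LHX2 and DMRTA2 mark the dorsal telencephalon from which the cortex arises, EN2, PAX3 and PAX7 the midbrain and its border with the hindbrain, and IRX and HOX genes more caudal levels. Radial glia, the stem cells of each territory, carry these factors and pass part of the code on to the astrocytes they later form. Glia taken from different territories can therefore be told apart by such genes even when their general glial genes are alike.

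Glial genes outside the gate were measured in all 3 libraries. FABP7, a lipid binding protein of radial glia, was at 2655, 1563 and 2453 CPM (UMIs of the gene in 1000000 UMIs of the summed glia) in E60_1, E60_2 and E60_3. AQP4, the water channel of astrocytes and ependyma, separated the libraries, at 2665, 587 and 188 CPM and with a UMI in 96.2%, 64.6% and 39.4% of the glia. All 3 shares were above those in microglia, which were 32.3%, 25.05% and 2.72%.

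The glia of E60_3 also held more cells with neuronal transcripts. Over 2 UMIs of DCX, STMN2, SLC17A6 and SLC17A7 together were found in 8.62%, 7.56% and 45.8% of the glia and in 6.73%, 9.83% and 21.1% of the microglia. E60_3 stood above its microglia, and the other two were near theirs. With every cell thinned to 2000 UMIs, which left out 0 glia, the shares were 4.24%, 2.26% and 28.9%. The name glia therefore held less well in E60_3, and values without these cells are given beside the results they touch.

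Depth differed with the libraries. The glia had medians of 4441, 5488.5 and 9455 UMIs per cell and summed to 12281282, 5547788 and 7594135 UMIs, so that 3 UMIs, taken as the floor, were 0.244, 0.541 and 0.395 CPM. The median UMIs of the 4 gate genes were 7, 6 and 8, or 14.6, 11.4 and 8.05 in 10000 UMIs. Hemoglobin took 1.44%, 2.73% and 0.133% of glia UMIs, and between 11 and 43 cell barcodes were shared by any pair of the 3 libraries. At the edge of the gate AQP4 was at 2417, 386 and 21.2 CPM in cells with exactly 4 UMIs of the gate genes, and at 1974, 305 and 16.1 CPM in cells with 3 that were left out, so the order of the libraries was the same on either side. All intervals below are exact 95% intervals that cover counting error only.

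Of the 11274 genes with at least 10 CPM and 20 UMIs in the glia of 1 or more of the 3 libraries, 301 (2.67%) were at least 4-fold higher in E60_3 than in both E60_1 and E60_2, and 141 (1.25%) at least 4-fold lower. Between E60_1 and E60_2 475 genes (4.21%) passed the same fold. The median absolute difference over all tested genes was 0.62 on the log2 scale between E60_3 and E60_1, 0.60 between E60_3 and E60_2 and 0.31 between E60_1 and E60_2. Against E60_1 alone 1059 genes passed 4-fold in E60_3 and against E60_2 alone 804, so that typical differences were smaller and genes past the fold fewer within the pair. Scaling by TMM or by DESeq2 size factors shifted all E60_3 ratios by -0.07 to -0.21 and turned the split of 301 higher and 141 lower genes into 232 and 181 or 226 and 183, that is from 68.1% higher to 56.2% or 55.3%.

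Transcripts that float free in the suspension enter every droplet, and microglia, which should lack glial genes, give a measure of their level. In the microglia of the same libraries, under the same fold and filter, 322 genes (2.94%) were higher and 90 (0.82%) lower in E60_3. Of the 301 genes higher in glia 108 were also higher in microglia and 0 lower, and of the 141 lower 32 were also lower and 0 higher. At a level in glia at least 2 times that of the microglia where the gene was high, 110 genes (0.976%) remained on the higher and 58 (0.514%) on the lower side. The genes named first in each direction below are those with the largest folds among these.

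**Figure D1:**
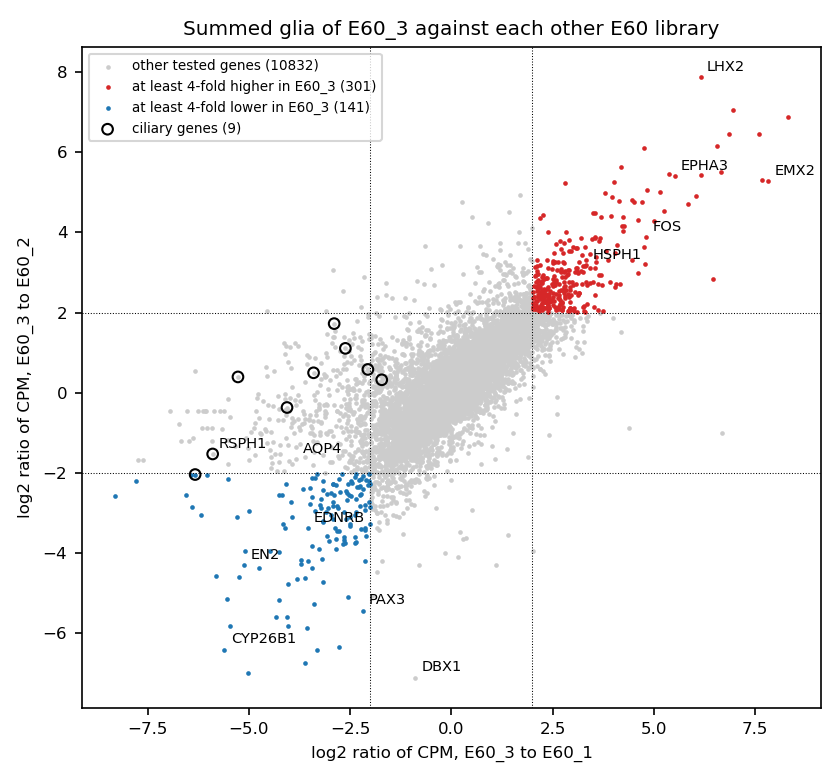
Each point is 1 of the 11274 tested genes, by the log2 ratio of its glia level in E60_3 to that in E60_1 (horizontal) and to that in E60_2 (vertical). The 301 genes at least 4-fold higher in E60_3 than in both lie in the upper right corner and the 141 at least 4-fold lower in the lower left.

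Dorsal telencephalic factors were high in E60_3 and near the floor in the other two. LHX2, a selector gene of the cortical primordium, was at 2.36, 0.721 and 169 CPM in E60_1, E60_2 and E60_3, which put E60_3 71.4-fold (49.5 to 107) above E60_1 and 234-fold (91.2 to 860) above E60_2. A UMI of LHX2 was found in 0.983%, 0.451% and 69.5% of the glia. LHX2 was at 1.77, 1.19 and 39.3 CPM in the microglia, so that the glia of E60_1 and E60_2 were level with their microglia and those of E60_3 stood above theirs.

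DMRTA2, which keeps cortical progenitors dividing, was at 0.57, 0 and 71.4 CPM, and FEZF2, a factor of dorsal progenitors and deep layer neurons, at 0, 0 and 47.3 CPM. E60_3 was 125-fold (60.4 to 313) above E60_1 for DMRTA2 and, against the floor, at least 87.4-fold above E60_2 for FEZF2. EMX2, which sets the caudal and medial part of the cortical field, was at 0.163, 1.44 and 55.6 CPM, 38.5-fold (19.4 to 89.8) above E60_2. Its relative EMX1 was at 0.57, 0.18 and 23.6 CPM. All 4 genes were named as called genes and passed the filter only through E60_3, so that its separate level was fixed by the choice. In the pig assembly Sscrofa11.1 LHX2 lies on chromosome 1 from 264900931 to 264920888, and EMX2 on chromosome 14 from 127649675 to 127656972.

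The list of telencephalic factors had 10 tested members of 20, of which 7 were called higher in E60_3 and 0 lower, where 2.67% of all tested genes were higher. All 7 were under 10 CPM in E60_1 and E60_2 and passed the filter only through E60_3, so their number is fixed in part by the filter and their levels are given as a description. Beside EMX1, EMX2, LHX2 and DMRTA2 these were TFAP2C, a factor of cortical radial glia, at 0.326, 0.361 and 23.4 CPM, and 2 genes of the neuronal lineage. EOMES, which marks intermediate progenitors of excitatory neurons, was at 0.407, 0.18 and 46.9 CPM, and TBR1, of early cortical neurons, at 0, 0 and 14.1 CPM.

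Among the members that did not reach the fold against both, PAX6, a factor of cortical but also of hindbrain progenitors, was at 40.5, 8.11 and 130 CPM. NR2E1, a regulator of neural stem cells, was at 6.92, 28.8 and 61.1 CPM. Both were highest in E60_3, but E60_1 and E60_2 differed from each other past 4-fold in opposite directions.

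LHX2 and EMX2 were no lower in E60_3 without the cells with neuron markers. Without cells that had over 2 UMIs of the neuron genes, LHX2 was at 1.19, 0.589 and 195 CPM and EMX2 at 0.0915, 1.57 and 60.7 CPM, and PAX6 and OTX1 were called higher as well. TBR1 dropped out, at 1.82 CPM in E60_3 without those cells against 26.6 CPM in them. Among glia with a UMI of AQP4 the called members were those called without neuron-marker cells, and LHX2 was at 2.27, 0.559 and 219 CPM.

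**Figure D2:**
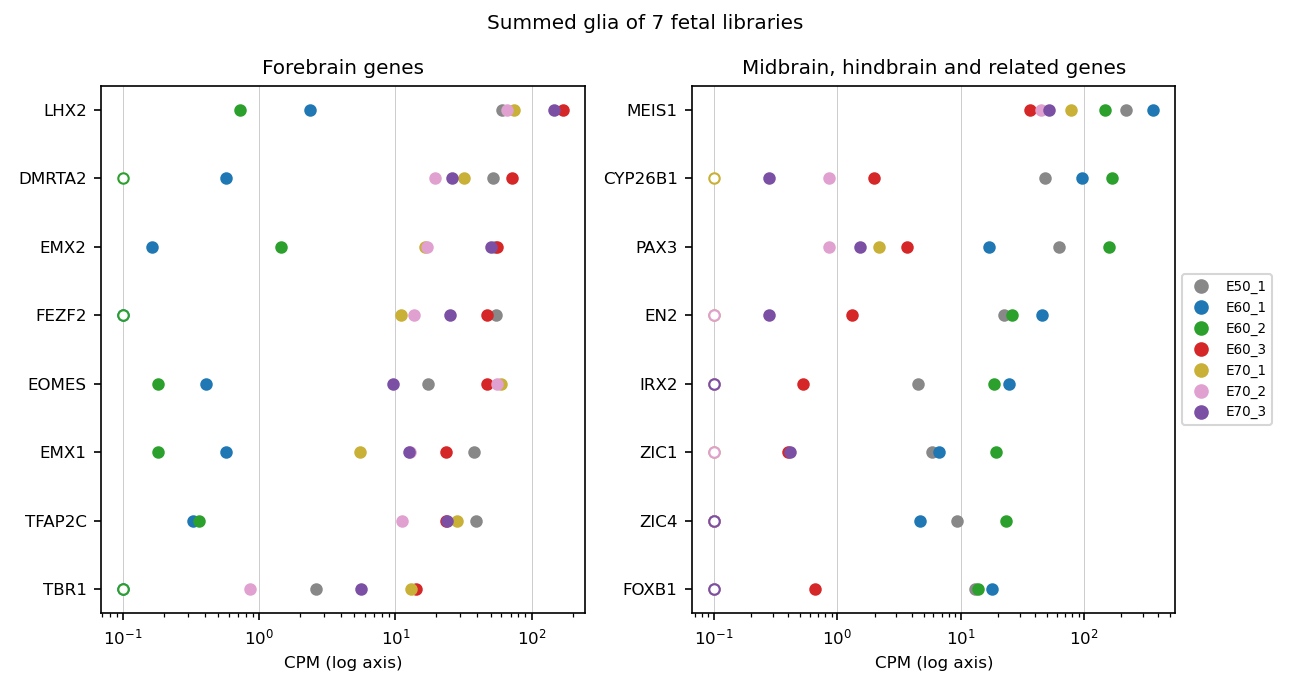
Levels of region genes in the summed glia of E60_1, E60_2 and E60_3 beside the libraries of E50 and E70, in CPM on a log axis; open points stand at the lower edge of the axis for libraries under 0.1 CPM, where several can lie over each other. Forebrain genes such as LHX2 (169 CPM in E60_3) and caudal genes such as EN2 (45.9 and 25.8 CPM in E60_1 and E60_2) show opposite orders of the libraries.

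Some caudal region factors showed the reverse, while others did not. The hindbrain and spinal cord list summed to 418, 258 and 68.2 CPM. The midbrain and isthmus list summed to 190, 753 and 1315 CPM, highest in E60_3, where MEIS2 held 1199 CPM of it. EN2, which sets the midbrain and hindbrain border, was at 45.9, 25.8 and 1.32 CPM, so that E60_3 was 34.9-fold below E60_1 and 19.6-fold below E60_2. IRX2, a factor of the hindbrain, was at 24.6, 18.6 and 0.527 CPM, but was not at least 2 times its microglia level in both E60_1 and E60_2. PAX3, of the dorsal midbrain, hindbrain and spinal cord, was at 16.8, 159 and 3.69 CPM. All 3 were high in both libraries of the pair, though PAX3 was higher in E60_2 than in E60_1 by more than the fold. In microglia EN2 was at 17.1, 11.0 and 1.2 CPM, below the glia of E60_1 and E60_2 and level with the glia of E60_3. EN2 lies on chromosome 18 from 2781977 to 2788441, and PAX3 on chromosome 15 from 124093803 to 124193041. PAX3 lost its call without the cells with neuron markers, at 16.3, 161 and 7.03 CPM, and in AQP4 positive glia, at 14.8, 164 and 4.5 CPM.

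Of the 29 genes listed for the hindbrain and spinal cord 6 were tested, and 4 were at least 4-fold lower in E60_3, where 1.25% of all tested genes were. Of these IRX2, ZIC1 and ZIC4 passed the filter only through E60_1 or E60_2, so that this count too is fixed in part by the filter. ZIC1 and ZIC4, factors of the dorsal neural tube and the cerebellum, were at 6.6 and 4.64 CPM in E60_1 and at 19.1 and 23.1 CPM in E60_2, while E60_3 had 3 and 0 UMIs of them. MEIS1, a partner of HOX proteins, was at 364, 148 and 36.6 CPM. ZIC1 and ZIC4 were less than 2 times their microglia level in E60_1 and in E60_2. Of the 4 lower genes only 1, MEIS1, was at least 2 times its microglia level in both libraries, so IRX2 missed that level too. Without the cells with neuron markers IRX2 alone of the 6 was still called, with ZIC1 at 2.38, 17.5 and 0.26 CPM and MEIS1 at 365, 149 and 41.9 CPM, and among glia with a UMI of AQP4 3 were, IRX2, ZIC1 and ZIC4. The HOX genes themselves passed the filter in 0 cases: HOXA2, HOXB2, HOXB3 and HOXB4 had 0 UMIs in the glia of all 3 libraries, which limits them to the floors given above.

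Among the midbrain and isthmus factors 2 of 8 tested were lower, EN2 and PAX3, against the 1.25% of all genes, and EN2 alone without neuron-marker cells or among AQP4 positive glia. EN2 and PAX3 passed the filter only through E60_1 and E60_2, so that their number is fixed in part by the filter. MEIS2, which is active in the midbrain roof but also in the forebrain, ran the other way at 65.6, 423 and 1199 CPM. PAX2, of the isthmus, was at 11.2, 20.2 and 55.3 CPM, also highest in E60_3. The microglia of E60_3 held 63.8 CPM of it, so the glia were not above their microglia there, and the source of these UMIs was not tested. PAX5 was at 29.4, 11.9 and 31.3 CPM, so that E60_3 was not below the pair. Of the 4 tested genes of the diencephalon 0 were called, but they were not all alike. TCF7L2, of the thalamus, was at 159, 167 and 120 CPM, close in all 3 libraries. DBX1, at 0.733, 54.3 and 0 CPM, and WNT3, at 4.4, 56.6 and 5.14 CPM, were high in E60_2 alone. FOXB1, a factor of the mammillary region, midbrain and hindbrain, was among the 15 lower genes with the largest folds, at 17.8, 13.7 and 0.658 CPM.

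Counted by cell, the called forebrain factors were found mainly in E60_3 and the called caudal ones chosen here in E60_1 and E60_2. For this count the called members EMX1, EMX2, LHX2 and DMRTA2 were set against EN2, PAX3 and IRX2, a choice made after their levels were seen, so the shares describe how those levels spread over cells. A UMI of the forebrain set was found in 1.70% (1.20 to 2.32), 1.24% (0.621 to 2.21) and 86.1% (83.2 to 88.7) of the glia, and in 1.12%, 1.30% and 20.4% of the microglia. A UMI of the caudal set was found in 33.1% (31.1 to 35.1), 64.3% (61.1 to 67.5) and 3.59% (2.29 to 5.34) of the glia, and in 10.7%, 30.6% and 3.401% of the microglia. The forebrain share of the pair and the caudal share of E60_3 were thus level with their microglia. Cells with both were 0.849%, 0.677% and 2.34% of the glia, that is 19 of the 38, 6 of the 11 and 15 of the 551 cells with the forebrain set.

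For these sets the order of the libraries was the same at equal depth. At 2000 UMIs per cell the forebrain set was found in 0.67%, 0.339% and 44.1% of the glia, and the caudal set in 14.8%, 34.8% and 1.41%. With the full lists drawn up for the comparison the picture was less clean. EMX1 and EMX2 gave 0.402%, 0.79% and 48.9% of glia, but the list of 16 midbrain and hindbrain genes gave 44.4%, 78.0% and 64.1%, against 65.3% in the microglia of E60_3. Both lists were found in 0.134%, 0.677% and 33.3% of the glia. The 64.1% of E60_3 was level with its microglia and rested largely on PAX2, of which 46.4% of the glia of E60_3 had a UMI. At 2000 UMIs the list of 16 genes gave 22.2%, 45.5% and 18.3%, so that E60_3 was then lowest and no longer above E60_1.

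**Figure D3:**
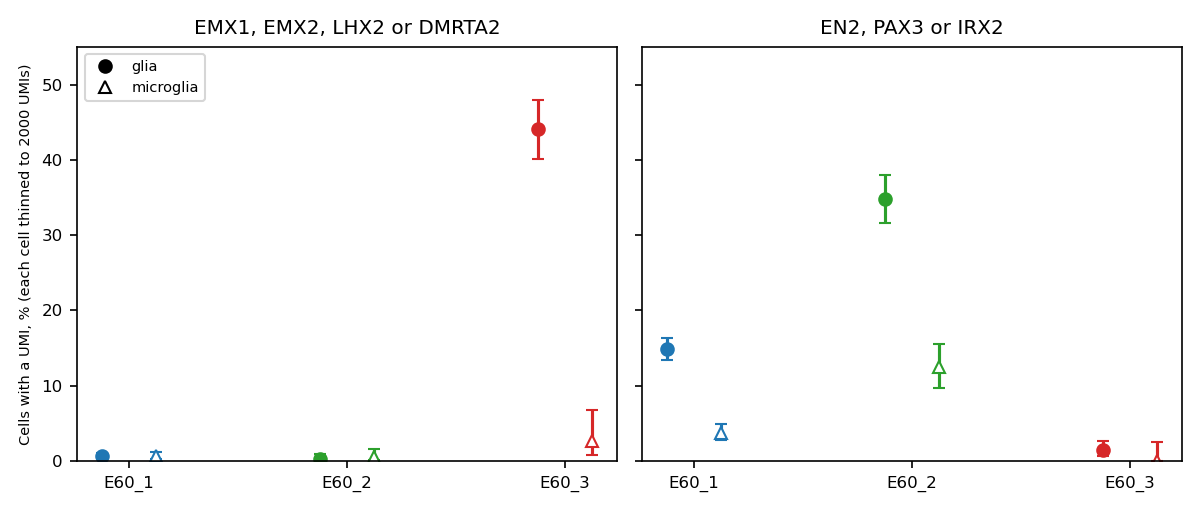
Share of cells (percent, exact 95% intervals) with a UMI of EMX1, EMX2, LHX2 or DMRTA2 (left) and with a UMI of EN2, PAX3 or IRX2 (right), for the glia (filled circles) of each E60 library and for the microglia (open triangles) as background, each cell thinned to 2000 UMIs. The forebrain set is found in 44.1% of the glia of E60_3 and the caudal set in 14.8% and 34.8% of those of E60_1 and E60_2.

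The glia gate applied to E50 and E70 libraries, which took no part in the contrast, gave values to set beside these. E70_1, E70_2 and E70_3 had the forebrain set in 63.2%, 76.2% and 75.4% of 68, 80 and 792 glia, and the caudal set in 2.94%, 1.25% and 1.39%. E50_1, of 3 pooled brains, had both, in 42.4% and 38.0% of 1204 glia, with 5.65% of cells carrying both, where its microglia had 4.69%. LHX2 was at 60.5 CPM in E50_1 and at 74.1, 65.8 and 146 CPM in the E70 libraries, and PAX3 at 62.3 CPM in E50_1 and at 2.18, 0.855 and 1.52 CPM at E70.

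Over all called genes the same libraries stood together. The 301 higher genes had median levels of 4.56, 4.51 and 35.2 CPM in E60_1, E60_2 and E60_3, 13.1 CPM in E50_1 and 33.8, 26.5 and 31.0 CPM at E70. The 141 lower genes had 48.0, 41.8 and 4.61 CPM, 19.96 CPM in E50_1 and 5.45, 8.55 and 5.68 CPM at E70. Between E60_3 and E70_3, which shared a sequencing pool, 19 of 10532 genes (0.18%) tested in this pair passed 4-fold in glia. Between E60_1 or E60_2 and E70_3 995 (9.0%) and 726 (6.71%) did. Between E60_3 and E70_1 or E70_2, of other pools and with few glia, 742 (6.93%) and 847 (7.82%) passed, and between E60_1 and E70_1, of the same pool, 1854 (17.0%). At E70 33 genes (0.357%) passed between E70_1 and E70_2, but 791 (7.45%) and 884 (8.23%) between these and E70_3, so that libraries of 1 age also differed, and age, pool and number of glia cannot be told apart.

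Beyond region factors, the higher genes with the largest folds included signalling and channel genes. RYR3, a calcium release channel, was at 16.4, 13.7 and 373 CPM, 22.8-fold (19.7 to 26.4) above E60_1 and 27.2-fold (21.7 to 34.6) above E60_2. HGF, the ligand of the MET receptor, was at 1.87, 1.62 and 53.6 CPM. SLC7A14, a lysosomal amino acid transporter, was at 3.34, 3.24 and 87.7 CPM, but without the cells with neuron markers at 1.37, 2.16 and 6.25 CPM, where it was no longer called. In these genes E60_1 and E60_2 were level with each other, and E60_3 was above both.

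In E60_3 RYR3 and HGF were higher in glia without neuron markers, at 510 and 74.2 CPM, than in its cells with neuron markers, at 233 and 32.5 CPM. SLC7A14 ran the other way, at 6.25 CPM without and 171 CPM with them. ARSJ, a sulfatase, was at 1.22, 1.98 and 46.2 CPM, and JAKMIP1, a microtubule binding protein, at 3.42, 3.06 and 64.3 CPM. CRYAB, a small heat shock protein, was at 81.8, 77.3 and 389 CPM, and CRYM, a thyroid hormone binding protein, at 17.0, 18.2 and 162 CPM. CRYAB and CRYM were again level within the pair.

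Of 35 tested astrocyte genes 5 were at least 4-fold lower in E60_3, against the 1.25% of all genes, 0 were higher and 30 did not reach the fold. Their median log2 ratios were -1.37 against E60_1 and -1.22 against E60_2, where all tested genes had -0.01 and 0.13. SPARCL1, a secreted synapse promoting protein, was at 1079, 1642 and 111 CPM, and SLC6A11, a GABA transporter of astrocytes, at 364, 103 and 21.3 CPM. APOE, the lipid carrier, was at 164, 172 and 34.0 CPM, but the microglia held 368, 384 and 438 CPM of it, so that it was below the microglia in all 3 libraries. CD38, an NAD consuming enzyme, was at 107, 49.4 and 9.48 CPM, and SLC39A12, a zinc transporter, at 49.5, 51.4 and 5.53 CPM. CD38 and SLC39A12 passed the filter only through E60_1 and E60_2, so that the count of 5 is fixed in part by the filter. Only 3 of the 5 were at least 2 times their microglia level in both E60_1 and E60_2. AQP4 missed the call because E60_2 was 3.13-fold above E60_3. CLU, a chaperone secreted by astrocytes, was at 4042, 3351 and 1824 CPM.

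Other receptors and secreted proteins of glia followed. EDNRB, the endothelin receptor of radial glia and astrocytes, was at 906, 799 and 77.6 CPM, 11.7-fold and 10.3-fold lower in E60_3, and had a UMI in 90.1%, 87.1% and 39.4% of the glia. GPR37L1, a receptor of astrocytes, was at 187, 311 and 11.5 CPM, and S100A1, a calcium binding protein, at 461, 208 and 13.6 CPM. EFEMP1, a matrix protein, was at 236, 99.3 and 4.21 CPM. In these 4 genes the pair differed by less than the 4-fold limit and E60_3 was below both.

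In AQP4 positive glia alone EDNRB was at 923, 934 and 128 CPM and S100A1 at 476, 305 and 27.3 CPM, so that both remained lower in E60_3 among cells that all carried AQP4. Of the astrocyte genes 4 were lower there, without APOE, and 3 without neuron-marker cells, SPARCL1, SLC39A12 and SLC6A11. In a sum over cells, fewer cells of a type and less RNA of it per cell cannot be told apart.

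Retinoic acid is a caudalizing signal that CYP26B1 degrades. CYP26B1 was at 96.1, 167 and 1.98 CPM, 48.6-fold and 84.5-fold lower in E60_3, with a UMI in 27.6%, 51.5% and 1.41% of the glia. RXRG, a retinoid receptor, was higher, at 4.8, 3.97 and 21.3 CPM, but less than 2 times its microglia level in E60_3. CYP26B1 and RXRG were the only 2 calls among 12 tested retinoid genes, where 2.67% of all genes were higher and 1.25% lower. RXRG passed the filter only through E60_3, and CYP26B1 only through E60_1 and E60_2. GAL, a neuropeptide, was at 80.1, 51.2 and 2.11 CPM, but in few cells, 8.17%, 7.22% and 0.781%. In E60_1 it stood at 670 CPM in glia without AQP4 and at 60.6 CPM in those with it.

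Of 28 tested Wnt genes 4 were lower, against the 1.25% of all genes, the ligand WNT5A at 38.2, 21.4 and 2.5 CPM, the receptors FZD2 and FZD10 and the inhibitor FRZB, and 0 were higher, with medians of -0.74 and -1.40. Without the cells with neuron markers 2 of these were called, WNT5A and FRZB. All 4 passed the filter only through E60_1 or E60_2, so that this count too is fixed in part by the filter. Only 2 of the 4 were at least 2 times their microglia level in both E60_1 and E60_2. Of 20 Notch, 14 FGF, 26 BMP and TGF beta and 27 cell cycle genes 0 were called in either direction. Of all tested genes 2.67% were higher and 1.25% lower, so that 0 calls in a single list of this size do not stand out. HES1, a gate gene also in the Notch list, was called higher without neuron-marker cells and among AQP4 positive glia. BMP5 passed the fold within the pair, at 12.6 CPM in E60_1 and 62.9 CPM in E60_2. TOP2A, an enzyme of dividing cells, had a UMI in 20.5%, 26.1% and 31.1% of the glia and at 2000 UMIs in 14.2%, 18.6% and 13.8%, so that the order changed at equal depth. GLI3, which holds back hedgehog signals in the dorsal forebrain, was at 158, 300 and 827 CPM, 2.76-fold above E60_2. CDON, a hedgehog co-receptor, was the 1 call among 14 tested hedgehog and ventral midline genes, at 4.64, 12.3 and 53.7 CPM, and it was not called among AQP4 positive glia.

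The gate genes themselves were not alike. HES1, a Notch target, was at 8.06, 26.1 and 103 CPM and SLC1A3 at 1318, 905 and 548 CPM, while SOX2 was at 134, 222 and 104 CPM and SOX9 at 169, 138 and 131 CPM. These values chose the cells and show only that HES1 weighed more in the gate of E60_3 and SLC1A3 less. Without neuron-marker cells HES1 was at 8.51, 27.3 and 166 CPM.

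Of 19 tested immediate early and heat shock genes 7 were higher in E60_3, against the 2.67% of all genes, 0 were lower and 12 did not reach the fold, with medians of 1.13 and 1.05. FOS, which is induced within minutes of a stimulus, was at 41.1, 78.0 and 1152 CPM, 28.0-fold (25.6 to 30.7) above E60_1 and 14.8-fold (13.4 to 16.3) above E60_2. EGR1 was at 19.0, 31.0 and 239 CPM, and the chaperones HSPH1 and DNAJB1 at 149 and 129 CPM in E60_1, 165 and 281 CPM in E60_2 and 1493 and 1257 CPM in E60_3. HSP90AA1, another chaperone of the list, was at 1739, 1173 and 2360 CPM and was not called. Only 4 of the 7 higher genes were at least 2 times their microglia level in E60_3.

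This group followed libraries in a way the region genes did not. FOS was at 1296 CPM in E70_3 but at 90.5 and 63.2 CPM in E70_1 and E70_2, and HSPH1 at 1596, 293 and 170 CPM, whereas LHX2 was high in all 3. The whole list summed to 10097 CPM in E60_3, 11895 CPM in E70_3 and also 8702 CPM in E50_1. It summed to 4573 and 4398 CPM in E60_1 and E60_2 and to 3386 and 3073 CPM in E70_1 and E70_2. E70_3 was the pool partner of E60_3 and E70_2 that of E50_1, and the part of the pool was not tested. In microglia FOS was at 76.6, 88.6 and 269 CPM in the E60 libraries, with E60_3 again highest, but HSPH1 was at 887, 433 and 397 CPM and DNAJB1 at 844, 627 and 389 CPM, the reverse of the order in glia. FOS had a UMI in 4.33%, 8.80% and 71.6% of the glia at 2000 UMIs. All 7 genes remained higher without neuron-marker cells and in AQP4 positive glia.

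**Figure D4:**
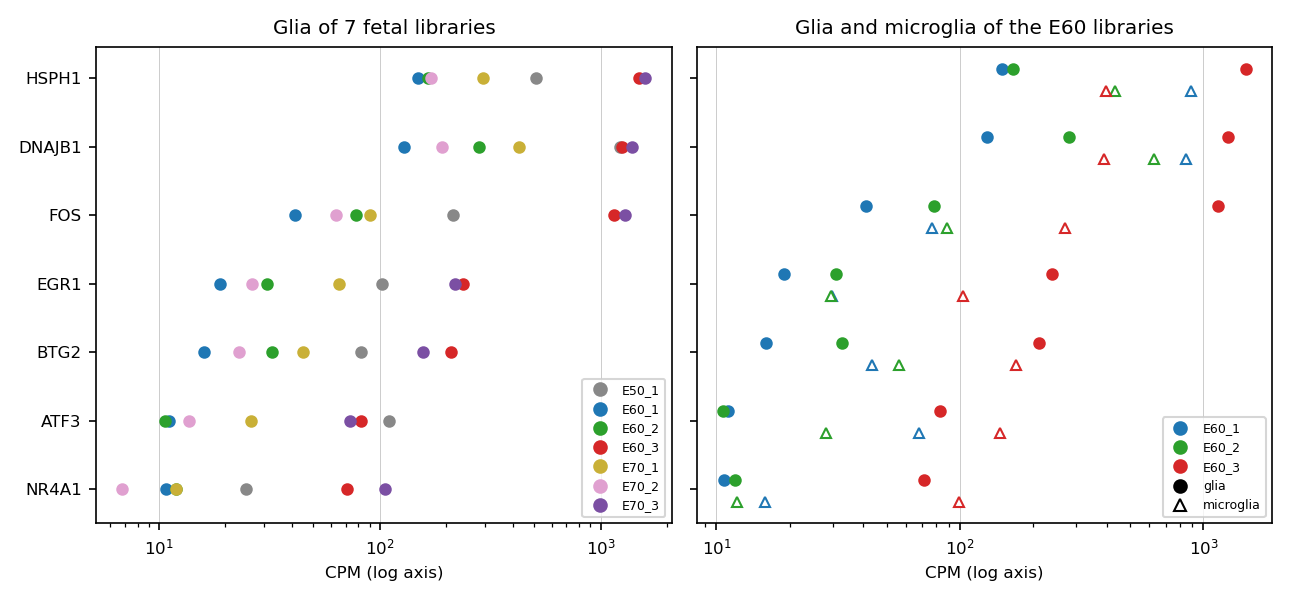
Levels of immediate early and heat shock genes in CPM on a log axis, in the glia of the 7 fetal whole cell libraries (left) and in the glia (filled circles) and microglia (open triangles) of the E60 libraries (right). FOS reaches 1152 CPM in the glia of E60_3 and 1296 CPM in those of E70_3, while HSPH1 in microglia is highest in E60_1 of the E60 libraries, at 887 CPM.

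Of 15 tested neuron markers 5 were higher in E60_3, against the 2.67% of all genes, and 1, SST, was lower, against 1.25%, with medians of 1.67 and 2.38. Of the 5 higher genes SLC17A6, NEUROD2 and NEUROD6 passed the filter only through E60_3, so that this count too is fixed in part by the filter. Only 2 of the 5 were at least 2 times their microglia level in E60_3. STMN2, a protein of growing axons, was at 168, 95.4 and 745 CPM, SLC17A6, the vesicular glutamate transporter, at 2.69, 2.88 and 51.6 CPM, and NEUROD6, a factor of cortical excitatory neurons, at 1.38, 0.18 and 37.4 CPM. Without the cells that had over 2 UMIs of the 4 marker genes STMN2 was at 23.7, 20.03 and 17.5 CPM and NEUROD6 at 0.274, 0.196 and 0.26 CPM, so that neither was higher in E60_3. STMN2 and SLC17A6 chose those cells, but NEUROD6 did not. Other members stayed highest in E60_3 without those cells. NPY, a neuropeptide, was then called higher, at 19.8, 3.93 and 186 CPM, and GAP43, of growing axons, and SYT1, of synaptic vesicles, were not called at 109 and 119 CPM in E60_1, 168 and 182 CPM in E60_2 and 258 and 253 CPM in E60_3.

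The guidance receptors EPHA3 and EPHA5 were at 14.9 and 68.0 CPM in E60_1, 16.2 and 76.6 CPM in E60_2 and 682 and 625 CPM in E60_3. In E60_3 EPHA3 was at 1181 CPM in neuron-marker cells and at 194 CPM in the rest, still above the 12.5 and 13.9 CPM of the rest in the pair. EPHA5 was at 67.2, 79.0 and 294 CPM without neuron-marker cells and was no longer called. For EPHA3 the microglia of E60_3 held 352 CPM. The ligand EFNA5 was on the lower side, at 190, 701 and 18.2 CPM, which made 2 higher and 1 lower of 14 tested Eph and ephrin genes, against 2.67% and 1.25% of all genes.

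E60_1 and E60_2 also differed from each other. Of the 475 genes past 4-fold between them 428 were higher in E60_1 and 47 in E60_2. Genes of motile cilia, carried by ependymal cells that line the ventricles, were among them. Of 12 tested members of the ependyma and choroid plexus list 11 passed the fold, against the 4.21% of all genes: 9 ciliary genes and TTR, of the choroid plexus, were higher in E60_1, and OTX2 was higher in E60_2. The list summed to 1751, 204 and 206 CPM. FOXJ1, the master factor of motile cilia, was at 114, 8.83 and 6.85 CPM. DNAH9, a dynein arm, was at 485, 32.4 and 45.8 CPM, and RSPH1, of the radial spoke, at 306, 14.8 and 5.14 CPM.

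At least 3 UMIs of 9 ciliary genes, a definition set after these levels were seen, were found in 39.6%, 8.01% and 35.0% of the glia. At 2000 UMIs the shares were 29.9%, 0.564% and 0.938%, so that at equal depth the share of E60_1 was far above the other two. The share in its microglia was 2.16% at that depth. Without these cells 91 genes passed the fold between E60_1 and E60_2, 51 higher in E60_1 and 40 in E60_2, and FOXJ1 was at 6.19, 6.6 and 1.79 CPM. The same 7 telencephalic and 4 hindbrain genes were called without them. SPRY1 of the FGF list, GDF10 of the BMP list and the cell cycle genes CCNB1, CDK1 and TYMS were then called lower in E60_3.

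Region genes also differed within the pair. E60_2 was higher in several factors of the midbrain and of dorsal and intermediate levels of the neural tube. DBX1, of progenitors midway between its dorsal and ventral edges, was at 0.733, 54.3 and 0 CPM, PAX7, of the dorsal midbrain, at 3.91, 59.5 and 4.74 CPM, and OTX2, of the forebrain and midbrain, at 5.21, 32.3 and 1.45 CPM. The Wnt ligands WNT3 and WNT5B, at 4.4 and 12.4 CPM in E60_1 and 56.6 and 133 CPM in E60_2, and the Wnt amplifier RSPO3, at 2.85, 88.0 and 7.51 CPM, were on the same side. E60_1 was higher in NKX6-1, a factor of the ventral hindbrain and spinal cord, at 26.4, 0.541 and 0 CPM, and in SULF1, a sulfatase of the ventral midline, at 302, 8.83 and 20.8 CPM. In these genes E60_3 was closer to the lower library than to the higher.

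**Figure D5:**
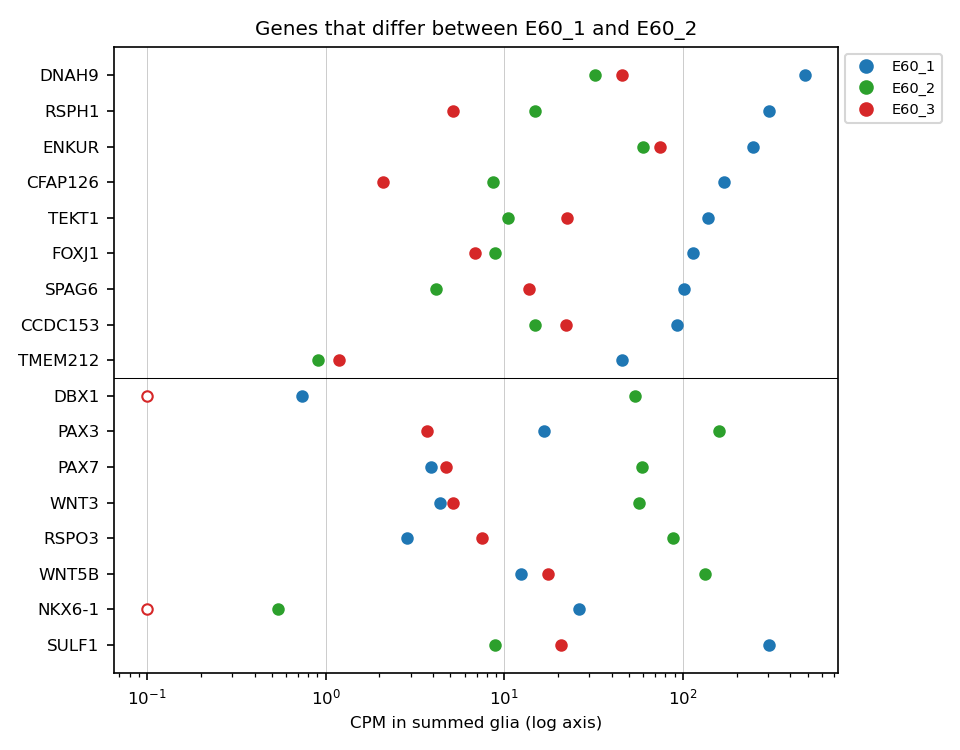
Levels of genes past 4-fold between the glia of E60_1 and E60_2, with E60_3 beside them, in CPM on a log axis, ciliary genes above the line and region and signalling genes below it; open points stand at the lower edge for libraries under 0.1 CPM. Ciliary genes such as DNAH9 (485 against 32.4 CPM) are highest in E60_1, and region factors such as PAX7 (3.91 against 59.5 CPM) in E60_2.

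Some called genes mark other cells or the fetuses rather than glia. DDX3Y and EIF1AY, genes of the Y chromosome, were at 0.163 and 0.814 CPM in E60_1, 1.26 and 0.901 CPM in E60_2 and 50.04 and 29.1 CPM in E60_3, and which sexes each library held was not given in the sources used here, the study having taken fetuses of both sexes. HBB, the beta globin gene of red cells, was at 14311, 27118 and 1325 CPM. All 5 tested erythroid genes were lower in E60_3, against the 1.25% of all genes. HBE1, HBM, ALAS2 and AHSP passed the filter only through E60_1 or E60_2, so that this count too is fixed in part by the filter. Of the 5, 0 were at least 2 times their microglia level in both E60_1 and E60_2. The microglial genes C1QB and AIF1 were lower too, at 12.9 and 20.3 CPM in E60_1 and 1.58 and 2.24 CPM in E60_3, where the libraries held 1248, 539 and 147 microglia. Of 9 tested vascular and meningeal genes 0 passed the fold against both libraries, where 2.67% of all genes were higher and 1.25% lower. COL3A1, a collagen of fibroblasts, was past the fold within the pair, at 4.15, 46.5 and 2.37 CPM. The part of these differences in the other results was not tested.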

How the data were processed

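The deposited files hold raw UMI counts per gene and cell, which the authors made with Cell Ranger (version 2.20 in the submitters' notes) on a reference that included introns, genome Sscrofa11.1 with Ensembl genes; cells were those Cell Ranger kept. Here the counts of the gated cells were summed per library and divided by their total to give CPM. A fold was computed with levels under 3 UMIs set to 3 UMIs, and a gene was called at 4-fold or more against both libraries. Microglia were cells with over 5 UMIs of C1QA and C1QB. No test was run, since the contrast was chosen from these cells and cells are not replicates; the labels give how many brains were pooled in each library but name no animals. Members and gene lists were chosen with earlier results of these data known.

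Of 513 list genes 488 were found in the files, 988 rows with an Ensembl ID being given a symbol; MKI67, HOPX, S100B, JUN and HSPA1A were not matched. Gene positions are from RefSeq on Sscrofa11.1. Genes named in the text are drawn from the gate genes, the 15 called genes with the largest smaller fold in each direction that were at least 2 times the microglia level and no hemoglobin, mitochondrial or sex-linked gene, the called members of each list and the 2 highest members not called; genes of the lists past 4-fold between E60_1 and E60_2 and other list members such as TOP2A, OTX1 and the HOX genes were added after their values were seen. Some genes are not reported here. Scrublet (through scanpy 1.11.5) marked 0, 0 and 9 cells of the 3 libraries and so did not work, and doublets were in effect not removed. Counts were also scaled with edgeR 4.0.16 (TMM) and DESeq2 1.42.0 in R 4.3.3. The call rule was checked on simulated counts.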

Additional observations from a re-analysis of the deposited data

How the results depend on the processing

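No paired analysis was possible because the results come from no test. The counts of 301 higher, 141 lower and 475 pair genes stayed within 1.5 times under other scalings, thinning, gates and most cell subsets. They moved to 118, 81 and 247 with a 50 CPM filter, 1377, 798 and 1479 at 2-fold, and 71, 40 and 211 at 8-fold. Without a CPM filter 628 genes were higher, and at 2 times the microglia level 110 were higher and 58 lower. In cells without AQP4, 84 of them in E60_1, 235 genes were lower and 226 passed between the pair. Without E60_1 or without E60_2, where 1 library fewer must be passed, 513 to 518 genes were higher and 267 to 521 lower, the 267 without E60_1 and the 521 without E60_2. Without ciliary cells, an alternative chosen after seeing the data, 91 genes passed between the pair; a limit on endothelial genes in place of CLDN5, also added, gave 324, 139 and 506. Called genes of the naming rule kept their direction in 77 of 77 cases, or 74 of 74 without hemoglobin and mitochondrial totals, except STMN2 without neuron-marker cells, whose log2 ratio turned from 2.56 to -0.32. These settings reuse the cells that gave the calls, so a kept direction is largely fixed by the choice of genes. The mean log2 ratio stayed past 4-fold at the fewest in 68 of 77 in cells without AQP4. It did in 71 without neuron-marker cells and in 72 with a gate of 8 in 10000 UMIs. For EMX1 and EMX2 and for the 16 midbrain and hindbrain genes, thinning gave shares of 0.179% and 22.2% in E60_1, 45.5% and 0% with both in E60_2, and 12.3%, 18.3% and 2.19% with both in E60_3. In E60_3 a gate of 6 UMIs gave 53.8% and 38.5% with both, and AQP4 cells 55.95%, 67.9% and 40.5%. EN2, PAX3 and IRX2 alone, chosen after seeing the data, gave 33.1%, 64.3% and 3.59%. The contrast had 1 library on 1 side. Levels under 0.541 CPM in E60_2 were set to that floor of 3 UMIs, so that folds do not resolve differences below it.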
